A study of Mus musculus with 6 samples.

Results

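Bile ducts drain the liver and are lined by cholangiocytes, epithelial cells that make up a small part of the organ. They are told from hepatocytes by the keratins Krt7 and Krt19, the adhesion protein Epcam and the transcription factor Sox9, and they add bicarbonate to bile in answer to the gut hormone secretin. When ducts multiply after injury, in what is called a ductular reaction, the same genes rise in whole liver, and some of them also mark liver progenitor cells. Such genes were read here, Dmbt1, Lgals4, Epcam, Krt19, Krt7, Sox9, Bicc1, Tspan8, Muc1 and Sctr, which are 10 of the 19505 genes that the arrays name. They were picked by gene symbol, each is read by 1 probe set (the set of probes that reports a gene), and all 10 were measured.

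The arrays compared mouse samples that had received an adeno-associated virus carrying Pik3cd (AAV-PIK3CD, arrays 51, 52 and 53) with samples that had received the control vector (AAV-control, arrays 48, 49 and 50), 3 arrays in each group. The product of Pik3cd is p110 delta, a catalytic subunit of the lipid kinase PI3K. By the study's methods the recipients were male C57BL/6 mice, injected at 8 weeks of age and killed at 12 weeks. In both groups the vector was of serotype 8 and used the liver-specific TBG promoter, which drives expression in hepatocytes and not in duct cells. The control vector is given as carrying EGFP, a fluorescent protein, in one place and as empty in another, and the injection is given as into the portal vein in one place and into the tail vein in another. The labels and a line of the study's methods call the tissue tumour, while the rest of the study's account describes liver. In the controls all 23 measured hepatocyte markers lay above the median of the arrays, and albumin (Alb) read between 13.19 and 13.27 on the log2 scale. Pik3cd itself read 4.66, 4.34 and 4.48 in AAV-control and 4.78, 5.14 and 4.86 in AAV-PIK3CD, a difference of 0.43 (SE 0.14), though it is not stated here whether its probes match the transgene's own transcript. Nothing in the labels says whether the 3 samples of a group came from separate animals, so the errors given here measure the spread between these samples.

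The 10 genes were proposed with the results of these arrays in view, and the study had listed Dmbt1, Lgals4 and Bicc1 as regulated on them and had Epcam and Krt19 in its RT-qPCR panel. Their differences between the groups are therefore a description and were not tested as new findings. In livers given the Pik3cd vector the study also reported a subtle ductular reaction by histology and an increase of epithelial genes by RT-qPCR. By gene set enrichment it reported a set of EpCAM-positive bile duct cells as enriched. Those are other measures than the single array values given here, and they were not examined. Every value is an RMA signal on the log2 scale, where 1 unit is a 2-fold change, and differences are AAV-PIK3CD minus AAV-control. Levels are compared between arrays for 1 gene and not between genes, because each probe set has its own brightness. In whole tissue, fewer cells of a type and less RNA per cell cannot be told apart.

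The 10 genes did not move as a unit. Dmbt1 stood far above the rest and was high on 2 of the 3 AAV-PIK3CD arrays. Lgals4 and Sctr were higher on every AAV-PIK3CD array than on any control, by a smaller amount, and the means of Epcam and Bicc1 were higher by somewhat less than that of Lgals4, with overlapping groups. The keratins Krt19 and Krt7, the tetraspanin Tspan8 and the mucin Muc1 differed by less than 0.25, and Sox9 differed by -0.05. The mean was higher in AAV-PIK3CD for 9 of the 10 genes, beside 47.7% of all 22206 probe sets, with a median difference of 0.30 beside -0.0067 for all probe sets. The AAV-PIK3CD arrays lay above all controls for 2 of the 10, beside 4.47% of all probe sets, and below all controls for 0 of the 10, beside 4.97%. By rank products with Benjamini-Hochberg adjustment over all probe sets, 1 of the 10 passed as higher (Dmbt1), beside 0.0045% of all probe sets. As lower 0 passed, beside 0.036%. The study's methods call for rank products too, but give no threshold. The study listed more genes as upregulated on these arrays than passed here, so its count and this one are not alike. Without array 51 (rank products, adjusted p = 0.121) or without array 52 (adjusted p = 0.598) Dmbt1 did not pass, and 0 of the 10 did. By limma 0 of the 10 passed, as did 0 probe sets in all. At an unadjusted p under 0.05, 6 were higher by rank products, beside 2.86% of all probe sets, and 5 by limma, beside 2.49%, while 0 were lower by either, beside 2.84% and 2.58%. Because the same contrast was used to propose these genes, nothing is read from these counts.

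**Figure D1:**
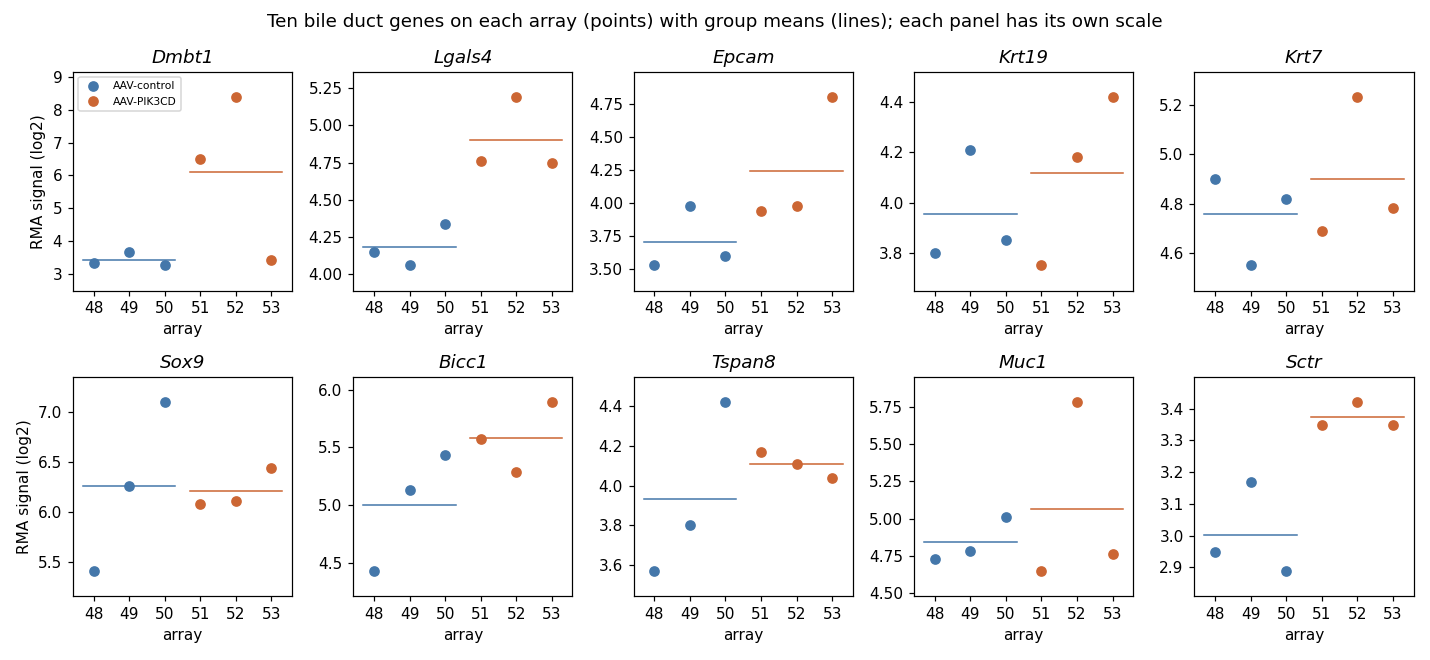
RMA signal (log2, vertical axes, a separate scale in each panel) of the 10 genes on arrays 48 to 50 (AAV-control, blue) and 51 to 53 (AAV-PIK3CD, orange), with a point for each array and a line at each group mean. Lgals4 and Sctr separate the groups, Dmbt1 is high on arrays 51 and 52 alone, and Sox9 spreads most among the controls of the 10 genes.

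Of the genes whose products are secreted or line the duct surface, Dmbt1 had the largest difference of any probe set on the arrays. It codes for a large secreted glycoprotein built of repeated scavenger receptor cysteine-rich domains, which binds bacteria at mucosal surfaces and is known in mice also as a product of gut and of pancreatic acinar cells. It read 3.34, 3.68 and 3.27 in AAV-control and 6.49, 8.38 and 3.42 in AAV-PIK3CD. Arrays 51 and 52 lay far above every other array, while array 53 lay within the range of the controls, so the groups overlapped. The means were 3.43 ± 0.22 and 6.10 ± 2.5 (SD, n = 3 each), a difference of 2.67 or 6.35-fold between geometric means. The SE of that difference was 0.90 in the limma fit, which draws each gene's spread towards that of all genes, and 1.45 from the spread of Dmbt1 alone. Without array 52 the difference was 1.52, without array 51 it was 2.47 and without array 53 it was 4.01. The control level exceeded that of 23.8% of probe sets, a part of the scale where background limits any fold. Dmbt1 lies on chromosome 7, and the 4 measured protein-coding genes on either side of it differed by between -0.09 and 0.06, with 4 of the 8 higher. Its nearest neighbours, Htra1 and 4933402N03Rik, differed by -0.09 (SE 0.12) and -0.02 (SE 0.11).

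Lgals4, which codes for galectin 4, a sugar-binding lectin of digestive epithelia that is secreted and gathers glycoproteins at the apical surface, separated the groups. It read 4.15, 4.06 and 4.34 in AAV-control and 4.76, 5.19 and 4.75 in AAV-PIK3CD. Every AAV-PIK3CD array lay above every control, with a gap of 0.41 between the nearest arrays of the 2 groups. The difference was 0.72 (SE 0.15), or 1.64-fold, and it ranged from 0.57 to 0.80 when each array was left out in turn. The probe set is annotated to a second transcript that the RefSeq table used here does not pair with a gene, so signal from a similar gene cannot be told apart from that of Lgals4. On the same chromosome the 4 measured genes on either side of Lgals4 differed by between -0.16 and 0.18, and they include the galectin Lgals7, which differed by 0.16 (SE 0.14). Among the 8 measured galectins the largest fall in the mean was that of Lgals3, a galectin of macrophages and injured epithelia, which read 4.63, 5.15 and 4.77 in AAV-control and 4.33, 4.35 and 4.66 in AAV-PIK3CD (difference -0.40, SE 0.16). The median difference of the 8 was 0.03, and 0 passed rank products over all genes, with 1 higher (Lgals4) and 1 lower (Lgals3) at an unadjusted p under 0.05 by rank products and the same by limma.

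Muc1, a membrane mucin of the apical surface of ducts and glands, was high on a single array. It read 4.73, 4.78 and 5.01 in AAV-control and 4.65, 5.78 and 4.76 in AAV-PIK3CD. Array 52, the array on which Dmbt1 and Lgals4 were also highest, stood above the rest, array 53 lay within the range of the controls and array 51 just below it. The difference of 0.22 (SE 0.25) became -0.14 without array 52 and 0.43 without array 51. A range within AAV-PIK3CD as wide as that of Muc1, 1.13, was found in 131 probe sets, 0.59% of all. Of the 8 measured mucins 7 had a higher mean in AAV-PIK3CD, with a median difference of 0.08, and the gel-forming mucin Muc5ac had the next largest difference after Muc1, 0.15 (SE 0.14). After adjustment 0 of the mucins passed either test, and Muc1 alone had an unadjusted p under 0.05, by rank products.

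The stretch of DNA before the transcription start was at hand in RefSeq (build GRCm38.p6) for 5 of the 10 genes, Lgals4, Muc1, Epcam, Krt7 and Tspan8. Those of Lgals4, Muc1 and Epcam are shown because Lgals4 separated the groups, Muc1 was high on array 52 and Epcam on array 53. Each run holds the 250 bases before the start, 5′ to 3′ on the plus strand, and capitals mark matches on either strand to the motifs that are spelled out after the runs.
Lgals4, chr7:28833544-28833793: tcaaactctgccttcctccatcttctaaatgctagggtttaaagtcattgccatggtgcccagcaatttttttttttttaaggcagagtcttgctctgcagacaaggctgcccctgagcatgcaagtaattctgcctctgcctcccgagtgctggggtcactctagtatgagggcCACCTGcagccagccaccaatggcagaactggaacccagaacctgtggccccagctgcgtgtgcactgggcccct
Muc1, chr3:89228806-89229055: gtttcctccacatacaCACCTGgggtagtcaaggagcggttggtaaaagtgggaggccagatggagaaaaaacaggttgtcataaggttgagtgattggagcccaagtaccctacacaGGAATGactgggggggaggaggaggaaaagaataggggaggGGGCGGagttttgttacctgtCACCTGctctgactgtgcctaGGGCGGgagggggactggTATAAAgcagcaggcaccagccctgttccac
Epcam, chr17:87635729-87635978: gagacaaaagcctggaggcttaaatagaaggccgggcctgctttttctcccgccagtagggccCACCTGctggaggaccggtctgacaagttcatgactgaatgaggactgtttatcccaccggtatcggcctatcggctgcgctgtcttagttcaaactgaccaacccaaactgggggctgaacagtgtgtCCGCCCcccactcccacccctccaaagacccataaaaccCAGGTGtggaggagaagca

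The letters CACCTG, an E-box of the kind that the Snail and Zeb repressors bind, were in 4 of the 5 windows, those of Lgals4, Muc1, Epcam and Krt7, and in 17.2% of the 32851 windows of this length in the table. The letters GGGCGG, an Sp1 box, were in 3 of the 5, beside 32.7% of all windows. Only Muc1 of the 5 held the TATA box, TATAAA, which began 31 bases before the start, beside 12.4% of all windows. Muc1 also held the letters that TEAD factors bind, GGAATG, beside 12.6%. A match to the SOX motif, ACAAAG, was in the window of Tspan8 alone, beside 16.5%. The AP-1 motif, TGANTCA, was in 0 of the 5, beside 6.75% of all windows. The GRHL motif, AACCGG, was also in 0 of the 5, beside 5.62%. The motifs were chosen with these windows in view, and a match is a run of letters and not a bound site.

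Of the genes for adhesion and the membrane, Epcam was higher on average, and its size rested on array 53. Epcam codes for a membrane protein that joins epithelial cells, and in liver it marks duct and progenitor cells and is absent from mature hepatocytes. It read 3.53, 3.98 and 3.60 in AAV-control and 3.94, 3.98 and 4.8 in AAV-PIK3CD. Array 53 was the highest, and arrays 51 and 52 lay at the level of the highest control, array 49. The difference of 0.54 (SE 0.22) was 0.26 without array 53 and at most 0.69 with any other array left out. Tspan8, a tetraspanin of digestive epithelia that organises other membrane proteins, read 3.57, 3.80 and 4.42 in AAV-control and 4.17, 4.11 and 4.04 in AAV-PIK3CD. The AAV-PIK3CD arrays lay within 0.13 of each other and inside the range of the controls, which was 0.85. Its difference of 0.18 (SE 0.19) was -0.003 without array 48 and 0.42 without array 50.

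The duct keratins form the intermediate filaments of cholangiocytes, Krt19 as an acidic and Krt7 as a basic partner. Krt19 read 3.80, 4.21 and 3.85 in AAV-control and 3.75, 4.18 and 4.42 in AAV-PIK3CD, a difference of 0.16 (SE 0.18). Array 53 was the highest and array 51 the lowest of all 6, so AAV-PIK3CD spanned the whole range. Krt7 read 4.90, 4.55 and 4.82 in AAV-control and 4.69, 5.23 and 4.78 in AAV-PIK3CD, a difference of 0.14 (SE 0.16) that was -0.02 without array 52. By the median of each group Krt7 differed by -0.04. Of the 11 keratins measured, 9 had a higher mean in AAV-PIK3CD, with a median difference of 0.08, and 0 had an adjusted or an unadjusted p under 0.05 by either test. Krt8 and Krt18, the pair that hepatocytes share with duct cells, differed by 0.04 (SE 0.17) and 0.06 (SE 0.17). The largest differences among the keratins were those of Krt4 and Krt80, at 0.24 (SE 0.12) and 0.18 (SE 0.12), with no overlap between the groups for either and with both levels below the array median.

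Of the regulators among the 10 genes, Sox9 had nearly equal group means, and it had the widest range of the 10 among the controls. Sox9 is the transcription factor that starts the duct programme in the embryonic liver and stays on in adult cholangiocytes and in hepatocytes next to the portal vein. It read 5.41, 6.26 and 7.10 in AAV-control and 6.08, 6.11 and 6.44 in AAV-PIK3CD. The controls spanned 1.69, a range that 15 of the 22206 probe sets (0.0675%) reached, and the AAV-PIK3CD arrays lay inside it and spanned 0.36. The difference of -0.05 (SE 0.33) was -0.47 without array 48 and 0.38 without array 50.

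Bicc1, an RNA-binding protein of ciliated tubes whose loss gives cysts in mouse kidney and bile duct, read 4.43, 5.13 and 5.43 in AAV-control and 5.57, 5.29 and 5.89 in AAV-PIK3CD. Arrays 51 and 53 lay above all controls and array 52 below the highest control. The difference of 0.59 (SE 0.24) was 0.30 without array 48, the lowest, and 0.80 without array 50. Sox9, Bicc1, Tspan8 and Muc1 shared their order among the controls, with array 48 the lowest and array 50 the highest, an order that 19.7% of all probe sets showed. Onecut1, a transcription factor of hepatocytes and duct cells that acts before Sox9 in the embryo, ran the other way at 9.74, 9.21 and 6.81 in AAV-control and 8.12, 8.84 and 8.15 in AAV-PIK3CD. The cause of the spread among the controls was not tested.

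Sctr, the receptor through which secretin makes cholangiocytes release bicarbonate, separated the groups at a very low level. It read 2.95, 3.17 and 2.89 in AAV-control and 3.35, 3.42 and 3.35 in AAV-PIK3CD, with a gap of 0.18 between the nearest arrays. The difference of 0.37 (SE 0.12) ranged from 0.31 to 0.45 when each array was left out. Its control level exceeded that of 12.6% of probe sets, which is low on the brightness scale of the arrays. Of the 12 genes listed for secretin and bicarbonate secretion 7 had a higher mean, with a median difference of 0.15. The sodium-hydrogen exchanger Slc9a3 came next to Sctr at 0.36 (SE 0.16), from 4.07, 3.70 and 4.02 to 4.46, 4.38 and 4.03. The chloride channel Cftr differed by 0.18 (SE 0.13), the bicarbonate exchanger Slc4a2 by -0.11 (SE 0.12), the water channel Aqp1 by -0.27 (SE 0.19) and secretin itself (Sct) by 0.20. After adjustment 0 of the 12 passed either test, while 3 were higher at an unadjusted p under 0.05 by rank products and 3 by limma.

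**Figure D2:**
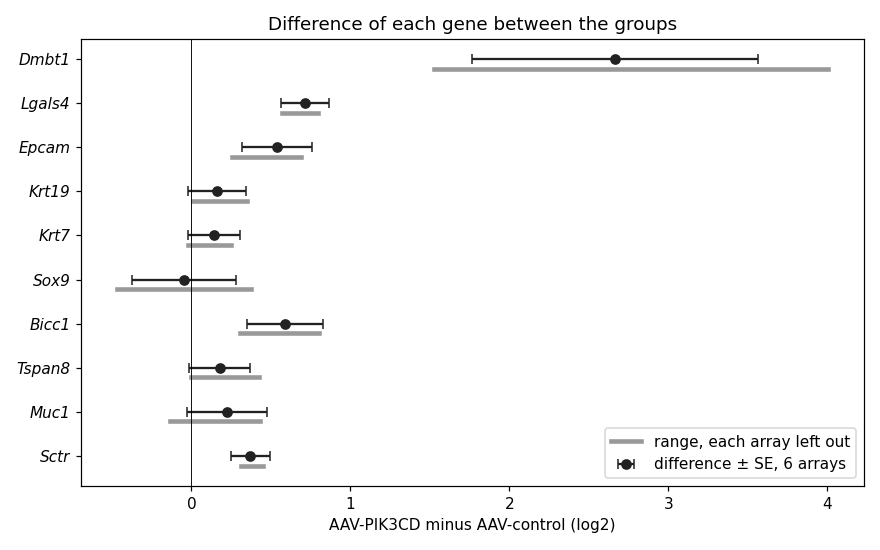
Difference of each gene between AAV-PIK3CD and AAV-control (log2, horizontal axis), as a point with the SE of the limma fit over 6 arrays, and below it in grey the range of the difference when each array was left out in turn. The range stays above 0.3 for Dmbt1, Lgals4, Bicc1 and Sctr, while it crosses 0 for Krt7, Sox9, Tspan8 and Muc1.

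The genes differed in the array on which they were highest. Array 52 held the highest value of Dmbt1, Lgals4, Krt7, Muc1 and Sctr, which are 5 of the 10, beside 13.4% of all probe sets. Array 53 held that of Epcam, Krt19 and Bicc1, beside 13.6%, control array 50 that of Sox9 and Tspan8, beside 22.4%, and array 51 that of 0, beside 20.8%. An AAV-PIK3CD array was thus the highest for 8 of the 10 genes, beside 47.7% of all probe sets. Some of these places were close, as for Sctr, whose AAV-PIK3CD arrays lay within 0.07 of each other. Because the same contrast was used to propose the genes, nothing is read from these counts either. Dmbt1 was at its highest on array 52, where Epcam and Krt19 read 3.98 and 4.18, and at its control level on array 53, where those 2 genes were highest. Krt7 was highest on array 52, as Dmbt1 was, so the duct keratins differed in this.

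None of the genes compared had a correlation above 0.9 with Dmbt1. Likeness was measured as Pearson's correlation of log2 values over the 6 arrays among the 597 other named genes with a range of at least 1, as a description, since with 6 arrays that share the 2 groups many genes are alike. The highest correlation was 0.897, for the butyrophilin-like gene Btnl4, followed by the transcription factors Etv1 (0.894) and Jun (0.873), the phospholipid phosphatase-related gene Plppr4 (0.856) and then Lgals4 (0.818). Akap6, an anchor of protein kinase A, and the matrix protein Ccn1 followed at 0.813 and 0.811. The elastase Mmp12, the long non-coding RNA Kcnq1ot1 and the chemokine Cxcl5 closed the list of 10 at 0.761, 0.731 and 0.73. By Spearman's correlation, which uses ranks alone, these last 3 stood at 0.257, 0.314 and 0.143. By the same measure Btnl4 and Ccn1 stood at 0.886 and Lgals4 at 0.6. Mmp12 read 3.71 on array 51, below every control. Btnl4 read 4.08, 4.30 and 4.15 in AAV-control and 5.09, 4.88 and 4.24 in AAV-PIK3CD. Jun, an AP-1 factor induced by growth and stress signals, read 7.06, 7.30 and 7.19 in AAV-control and 8.19, 7.97 and 7.45 in AAV-PIK3CD. Both read higher on arrays 51 and 52 than on the other 4, by less than Dmbt1 did. Of the 9 other duct genes, Lgals4 was the one among these 10, while Krt19, Krt7, Tspan8 and Sctr had ranges under 1 and were not among the genes compared. Computed for all 9, the correlation with Dmbt1 was 0.703 for Sctr, 0.689 for Muc1 and 0.599 for Krt7. It was 0.262 for Tspan8, 0.162 for Bicc1, 0.008 for Epcam, -0.022 for Krt19 and -0.192 for Sox9. Dmbt1 was the 1 gene with a range of at least 1 whose values on arrays 51 and 52 both exceeded those of the other 4 arrays by more than 1. Counting Dmbt1, 11 probe sets spanned at least 4.96 within AAV-PIK3CD, the range of Dmbt1. Of these 10 were highest on array 51 and 1, Dmbt1, on array 52.

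**Figure D3:**
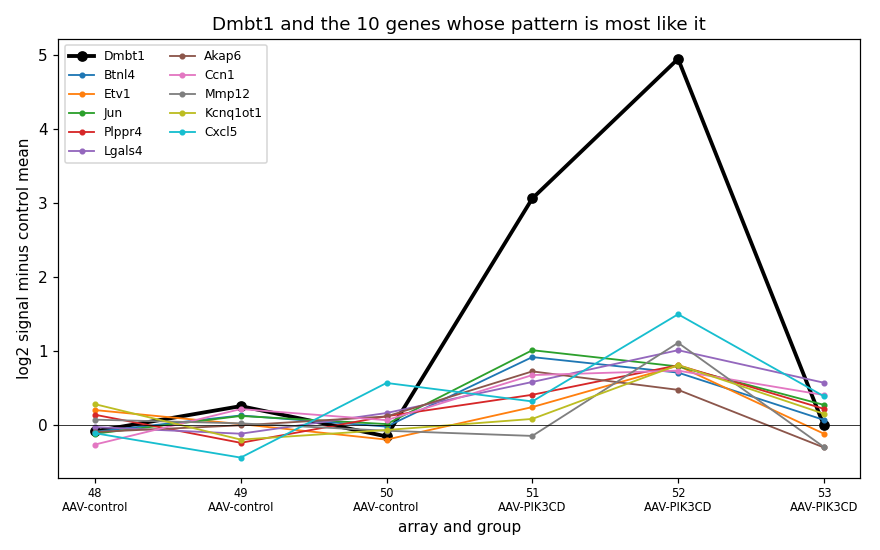
Log2 signal minus the mean of the 3 controls (vertical axis) of Dmbt1 (black) and of the 10 genes whose values over the 6 arrays correlate best with it, on each array (horizontal axis). Lines join the points of 1 gene and carry no order. Dmbt1 alone rises by more than 2 units, on arrays 51 and 52, and returns to the control level on array 53.

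Other genes of the duct programme differed little. A list of 34 further bile duct genes held 29 that were measured (the others were not analysed here), of which 17 had a higher mean in AAV-PIK3CD, with a median difference of 0.04 beside -0.0067 for all probe sets. After adjustment 0 of the 29 passed either test. Without adjustment 1 was higher (Cldn7) and 1 lower (Onecut1) by rank products at 0.05, and 0 by limma. The groups did not overlap for 1 of them, Glis3, a transcription factor of cyst and duct biology, which read 4.90, 5.16 and 5.14 in AAV-control and 5.41, 5.41 and 5.22 in AAV-PIK3CD (difference 0.28, SE 0.13), beside 4.47% of all probe sets higher without overlap. The largest difference was that of Cldn7, a tight junction protein that binds Epcam, at 0.34 (SE 0.19), which read 3.75, 3.93 and 4.06 in AAV-control and 4.08, 3.98 and 4.70 in AAV-PIK3CD. Like Epcam, Cldn7 was highest on array 53, without which it differed by 0.12. St14, a membrane protease that cleaves Epcam, and the transcription factor Sox4 differed by 0.29 (SE 0.15) and 0.25 (SE 0.13). At the other end stood Aqp1, the bile acid transporter Slc10a2 at -0.25 (SE 0.21), Onecut1 at -0.22 (SE 0.58) and Onecut2 at -0.17 (SE 0.15). Leaving out array 48 turned the value of Onecut1 to 0.36, and leaving out array 50 made it -1.11. Pigr, which carries antibody into bile, read between 11.16 and 11.36 on all 6 arrays.

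Epithelial defence proteins other than Dmbt1 did not share its pattern. Of the 13 measured, 7 had a higher mean, 1 passed rank products (Dmbt1, with all 6 arrays and not without array 51 or 52) and 0 passed limma. Lcn2, an iron-scavenging protein of injured epithelia and hepatocytes, varied the most after Dmbt1, at 5.66, 7.09 and 7.72 in AAV-control and 6.0, 8.0 and 5.12 in AAV-PIK3CD. It was highest on array 52 as Dmbt1 was, but controls 49 and 50 came next and array 53 was the lowest (difference -0.45, SE 0.66).

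Markers of other tissues moved with 1 array. The mean of 24 pancreatic acinar genes was 6.94 on array 51 and between 3.73 and 3.84 on the other 5, with amylase (Amy2a5) at 12.10 and carboxypeptidase A1 (Cpa1) at 9.77 on array 51. On that array 20 of the 24 were at their highest, and 19 lay more than 1 above their mean on the other arrays. The mean of 13 muscle genes was 4.81 on array 51 and between 3.70 and 3.88 elsewhere, with Tnnt3 at 5.94. Dmbt1 is itself made by pancreatic acinar cells, so its value of 6.49 on array 51 stands beside these values, and their part in it was not tested. On array 52, where Dmbt1 read 8.38, the acinar mean was 3.82, within the 3.74 to 3.84 of the controls, and without array 51 the difference of Dmbt1 was 2.47, while that of Lgals4 was 0.79, of Epcam 0.69, of Bicc1 0.59 and of Sctr 0.38.

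The lists for other epithelia that share these genes had similar means in the 2 groups. The mean of 19 intestinal genes lay between 4.07 and 4.19 in AAV-control and between 4.13 and 4.20 in AAV-PIK3CD. The intestinal factor Cdx2 read 2.53, 2.35 and 2.59 in AAV-control and 2.44, 2.41 and 2.42 in AAV-PIK3CD. The 6 genes listed for gallbladder and extrahepatic duct averaged 3.81 to 4.09 in AAV-control and 3.81 to 4.05 in AAV-PIK3CD, with Muc5b at 4.49 on array 52 and at 4.64 on control array 48. The 10 mesothelial genes, of which Krt19 and Krt7 are also duct genes, averaged 4.23 to 4.31 and 4.26 to 4.38. Single genes could differ where the list mean did not. Higher in AAV-PIK3CD without overlap were 2 of the 19 intestinal, 1 of the 10 mesothelial and 0 of the 6 gallbladder genes. Of all probe sets 4.47% were. The 13 islet genes averaged 3.92 to 4.04 and 3.91 to 4.03. The hepatocyte markers averaged 12.11 to 12.23 in AAV-control and 12.17 to 12.23 in AAV-PIK3CD.

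**Figure D4:**
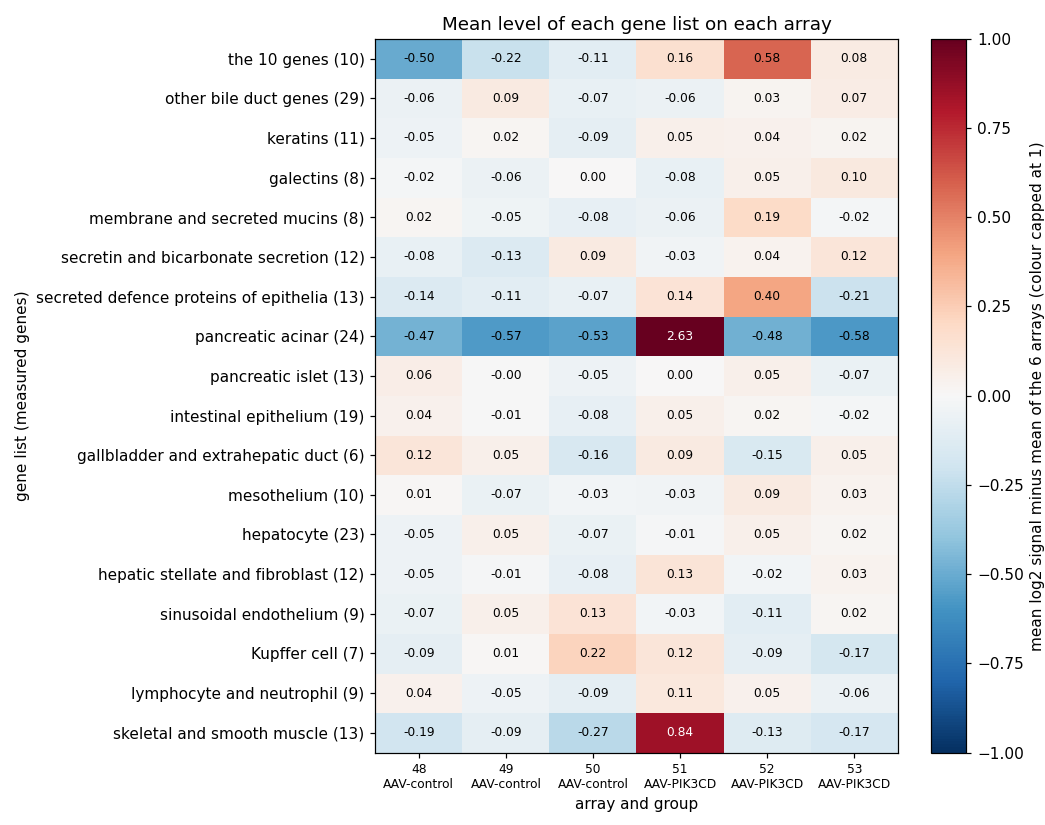
Mean log2 signal of each gene list on each array, minus the mean of the 6 arrays (number in each cell, colour capped at 1), with the number of measured genes in brackets. The acinar list stands at 2.63 and the muscle list at 0.84 on array 51. The mean of the 10 duct genes is highest on array 52 at 0.58. Dmbt1, which read 8.38 on that array, weighs heavily in this mean. The list mean of the 29 other duct genes stays within 0.09 of its level over the 6 arrays, while single genes varied more.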

How the data were processed

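Biotin-labelled total RNA was read on mouse Clariom S arrays (Affymetrix). RMA, run by the authors before deposit, corrects the background, sets the arrays to common quantiles and summarises the probes, and gave log2 signals with 2 decimals. The software version and summary level are not given in the sources used here. Quantile normalization makes the arrays' distributions alike, so a shift shared by most genes would not be seen. Array medians lay between 4.81 and 4.87; arrays have no read depth, and 3 per group limit the precision.

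All 22206 probe sets were used. GEO's platform table, updated through a RefSeq gene table, named 19572 of them and not 2634; where a symbol had several, the one with the brightest average was taken. The 10 genes, the lists and the motifs were chosen with earlier results of these data known. Groups were compared by rank products (all 9 pairs of arrays, 1000 seeded shuffles, 2-sided, Benjamini-Hochberg at 0.05), which ranks by size and takes no account of a gene's own spread, and by limma 3.58.1 in R 4.3.3 (lmFit, eBayes), which gave the SE. An exact permutation test of 3 against 3 cannot go below 0.1 and was not used. Both tests were checked on simulated data. Genes outside the 10 were named by rule: of the other duct genes the 4 largest differences in each direction, of each family the 2 largest, the 10 most like Dmbt1, and of other tissues the brightest 2 on the array where their list was highest. Aside from these, Krt8, Krt18, Cftr, Slc4a2, Sct, Pigr, Glis3, Cdx2, Lgals7 and the neighbours of Dmbt1 were named after their values were seen, and not every gene that the rule allows is named. Alternatives were 3 scalings, filters on dim probe sets, 1 probe set per symbol, group medians, limma, the methods' t-test and each array left out. Scripts ran in Python 3.11.15 with pandas 2.3.3, numpy 2.4.6 and scipy 1.17.1, and matplotlib 3.10.9 drew the plots.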

Additional observations from a re-analysis of the deposited data

How the results depend on the processing

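No paired analysis was possible because the groups share no replicate numbers. Quantile normalization and cyclic loess each called 2 probe sets higher by rank products in place of 1, and moved no difference of the 10 genes by more than 0.04. Without the dimmest 25% of probe sets 2 were called lower in place of 8. Without the dimmest 50%, 0 were called higher and 2 lower. That filter leaves out Dmbt1 and keeps only Sox9, Bicc1 and Muc1 of the 10 genes, and 0 of these 3 were called. By limma 0 were called higher and 0 lower, 0 of the 10 genes among them; the methods' t-test gave 503 higher and 556 lower at its unadjusted threshold, 2 of the 10 genes among them, and 0 of each after Benjamini-Hochberg, with 0 of the 10. With each array left out, rank products called 0 to 5 higher and 1 to 10 lower, and 0 to 1 of the 10 genes; Dmbt1 lost its call without array 51 and without array 52. The median difference of the 10 genes was then 0.26 to 0.41 and that of the other duct genes -0.02 to 0.10 (-0.02 without array 48). All 122 alternative values of single differences of the 10 genes moved by less than the spread between arrays of a group. That spread was widest for Dmbt1 at 1.78. For the values with an array left out this outcome was fixed in advance. The spread comes from the same arrays, and leaving out an array cannot shift a group mean that far. These values still ran from 1.52 to 4.01 for Dmbt1 and from -0.47 to 0.38 for Sox9. The replacement of other probe sets of a symbol was not run, since each of the 10 genes has 1. Dmbt1 and 6 others of the 10 lay below the median of the arrays in the controls, where background limits any fold.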
